A study of Mus musculus with 21 samples.

Results

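Binding of the glucocorticoid receptor (GR) to liver chromatin was compared between dexamethasone (DEX) and phosphate-buffered saline (PBS) in mice kept at 7% oxygen for 6 h. The comparison took the peak lists of 3 livers of the 6h hypoxia DEX group and 3 livers of the 6h hypoxia PBS group, and a site is a run of peaks from these 6 lists in which each shares at least 1 bp with another. There were 2368 sites, against 7398 sites over all 18 receptor libraries of the series. All mice were C57BL/6J. Those of the 6h hypoxia DEX group were injected with 10 mg/kg DEX after their time in the chamber, went back to 7% oxygen, and were sampled 2 h later, and those of the 6h hypoxia PBS group were handled alike with PBS. The other groups of the series were normoxia DEX and normoxia PBS, at ordinary oxygen, and 24h hypoxia DEX and 24h hypoxia PBS, at 7% oxygen for 24 h, with the same injections, 3 biological replicates in each. The libraries came from snap-frozen whole liver crosslinked with formaldehyde and precipitated with a rabbit antibody against GR. Because whole liver was used, a change in the share of cells with receptor at a site and a change in occupancy per cell cannot be told apart. The age and sex of the mice are not given in the sources used here.

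GR is a ligand-activated transcription factor. Without hormone it is held by chaperones in the cytoplasm, and with a glucocorticoid it enters the nucleus and binds glucocorticoid response elements, which are inverted repeats of a short half-site around a spacer. DEX is a synthetic glucocorticoid, and mice also make their own, corticosterone, which is released under stress. In liver, GR is known for inducing genes of glucose production, amino acid breakdown and lipid handling, and feedback genes such as Fkbp5, Per1 and Tsc22d3. Low oxygen is known to act through the hypoxia-inducible factors (HIF), another family of transcription factors.

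Some of the bound sites lay directly before a gene's start, where the bases under the peak could be read. The 250 bases upstream of the start are shown for Mt1, a metallothionein gene induced by glucocorticoids, for the kinase gene Map3k6, for the non-coding gene A230028O05Rik, whose site held as many tags with PBS as with DEX, and for the acute phase gene Orm2. The sequences are those of RefSeq for GRCm38.p6, the assembly behind mm10, printed 5′ to 3′ on the strand of the gene, which is the plus strand in all of them. Capitals mark the core of a glucocorticoid response element, ACANNNTGT, which reads the same on both strands, or, in Orm2, which holds no such core, the half-site AGAACA. They span chr8:94178839-94179088 for Mt1, chr4:133240568-133240817 for Map3k6, chr16:25059389-25059638 for A230028O05Rik and chr4:63362199-63362448 for Orm2.
Mt1: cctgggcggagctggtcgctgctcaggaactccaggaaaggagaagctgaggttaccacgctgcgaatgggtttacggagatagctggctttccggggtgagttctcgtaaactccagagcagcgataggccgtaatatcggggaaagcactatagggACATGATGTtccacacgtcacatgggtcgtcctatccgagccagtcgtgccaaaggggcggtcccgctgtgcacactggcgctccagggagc
Map3k6: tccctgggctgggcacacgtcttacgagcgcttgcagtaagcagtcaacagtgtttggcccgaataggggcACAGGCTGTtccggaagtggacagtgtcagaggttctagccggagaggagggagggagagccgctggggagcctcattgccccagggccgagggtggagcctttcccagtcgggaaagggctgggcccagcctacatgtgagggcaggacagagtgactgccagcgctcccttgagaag
A230028O05Rik: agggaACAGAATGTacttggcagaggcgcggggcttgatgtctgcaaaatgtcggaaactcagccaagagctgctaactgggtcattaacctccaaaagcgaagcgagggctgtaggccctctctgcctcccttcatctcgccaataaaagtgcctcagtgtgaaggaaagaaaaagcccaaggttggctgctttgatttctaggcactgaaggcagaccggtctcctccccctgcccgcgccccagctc
Orm2: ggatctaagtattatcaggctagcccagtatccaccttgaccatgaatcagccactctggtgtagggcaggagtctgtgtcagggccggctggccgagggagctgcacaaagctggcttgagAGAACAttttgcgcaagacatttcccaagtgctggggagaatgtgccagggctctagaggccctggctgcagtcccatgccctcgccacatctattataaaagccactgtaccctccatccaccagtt

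In each of the upstream regions shown the capitals fell inside the called site. The regions are examples that hold a match. Of 61 windows around gene starts that overlapped sites in all 3 DEX lists, 15 held the core and 21 the half-site. The core began 92 bases upstream of the start in Mt1, 179 in Map3k6 and 245 in A230028O05Rik, and the half-site of Orm2 began 128 bases upstream. At Mt1 the site (chr8:94178896-94179104) held 236.9, 337.8 and 180.8 normalized tags in the 3 DEX livers, against 271.5 and 92.4 in PBS replicates 2 and 3 and no peak in PBS replicate 1. Normalized tags are the authors' tag counts in a peak, scaled to 10000000 tags per library. One PBS liver thus lay within the range of the DEX livers. The Map3k6 site (chr4:133240527-133240748) held 324.3, 318.7 and 252.2 tags with DEX, against 45.3, 203.9 and 112.9 with PBS, and every DEX liver lay above every PBS liver. At A230028O05Rik the groups overlapped fully, with 322.5, 358.6 and 277.8 tags in DEX livers, against 288.7, 371.8 and 348.6 in PBS livers. The Orm2 site held 128.5, 164.6 and 110.4 tags with DEX and was called with PBS in replicate 3 alone, at 49.0. Orm2 has a close neighbouring copy, Orm1, and reads could have been split between them by the authors' alignment.

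The 6 libraries differed in depth and in how much receptor signal they held. Total tags were 11441406, 5772670 and 10509441 in DEX replicates 1 to 3, against 15658505, 8876789 and 16121184 in PBS replicates 1 to 3. The caller's minimum of 50 tags was not scaled, so the lowest peak in a list held between 42.0 and 83.2 normalized tags with DEX, against 31.6 to 56.3 with PBS. A site missing from a list therefore means signal under the caller's thresholds, not zero signal. Peaks numbered 2168, 1485 and 1498 in the DEX livers, against 230, 751 and 622 in the PBS livers. Their log2 numbers differed by 1.83, a 3.55-fold difference, with every DEX list longer than every PBS list (exact permutation p = 0.1, two-sided, the smallest that 3 against 3 can give). The share of a library's tags in its peaks was 2.65%, 3.15% and 1.93% with DEX, against 0.240%, 1.23% and 0.624% with PBS, again without overlap (the means lay 1.88 points apart, two-sided exact permutation p = 0.1).

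PBS replicate 1 stood apart from the other PBS livers. It had the lowest PBS tag count at 165 of the 173 sites called in all 6 lists, although it was among the deepest libraries, and PBS replicate 2 was the highest PBS liver at 169 of them. At the median such site PBS replicate 2 held 3.53 times the tags of PBS replicate 1. The median SD of log2 tags per site was 0.36 among the DEX livers and 0.93 among the PBS livers. Every test between the groups therefore carries the spread of the PBS livers, and the named rises are given without PBS replicate 1 too.

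**Figure D1:**
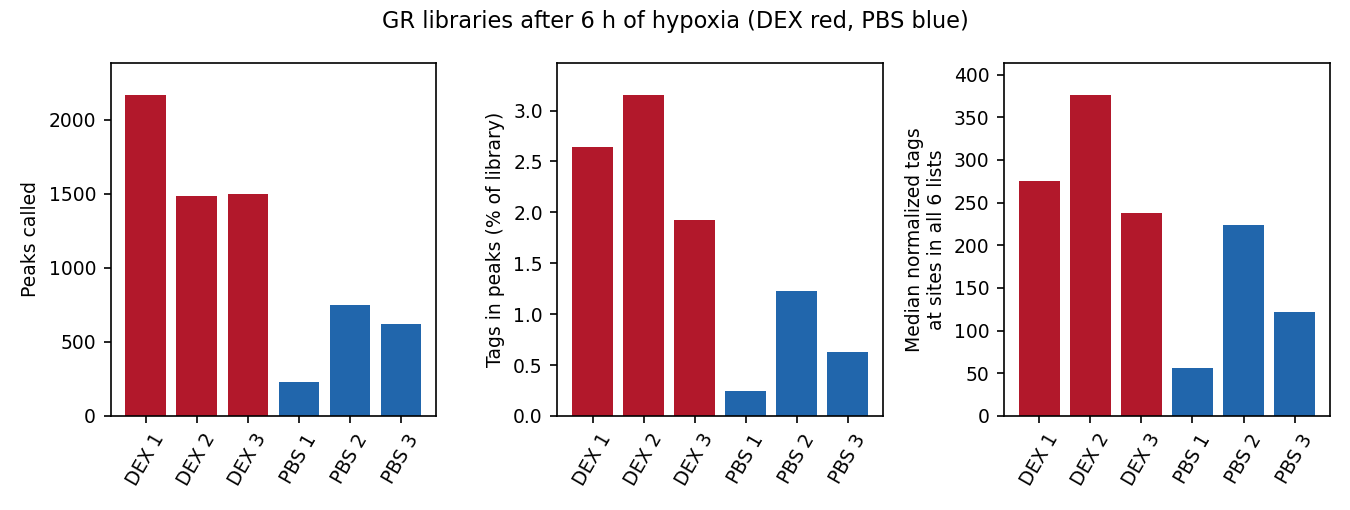
Peaks called, the share of tags inside peaks and the median normalized tags at the 173 sites called in all 6 lists, as one bar per liver, for DEX (red) and PBS (blue) after 6 h of hypoxia. All DEX bars are higher than all PBS bars in each panel, and PBS 1 is the lowest throughout, with a median of 56.2 tags against 224.2 in PBS 2 and 122.2 in PBS 3.

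With DEX, the receptor was found at far more places, and the places occupied with PBS were mostly a subset of them. Of the 230, 751 and 622 PBS peaks, 93.0%, 98.9% and 95.7% lay at a site that some DEX liver also held, while 38.8%, 51.8% and 54.1% of the DEX peaks lay at a site that some PBS liver held. A peak was called in all 3 DEX lists at 1165 of the 2368 sites (49.2%). Of these, 423 were in no PBS list, 295 in 1, 274 in 2 and 173 in all 3. The PBS lists overlapped unevenly: of the 295 sites with 1 PBS peak, 231 had it in PBS replicate 2 and 64 in PBS replicate 3, and of the 274 with 2 peaks, 272 had them in replicates 2 and 3. A site in all 3 PBS lists and no DEX list was found once.

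How many PBS livers held a site went along with how strongly DEX livers held it. The mean DEX tag count had a median of 98.1 (quartiles 84.8 and 121) at the 423 sites without a PBS peak, 130 at those with 1, 172 at those with 2, and 305 (quartiles 210 and 415) at the 173 sites with 3. Whether a weak site is listed in a PBS library depends on the caller's minimum, so these classes describe detection and not presence or absence of the receptor.

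**Figure D2:**
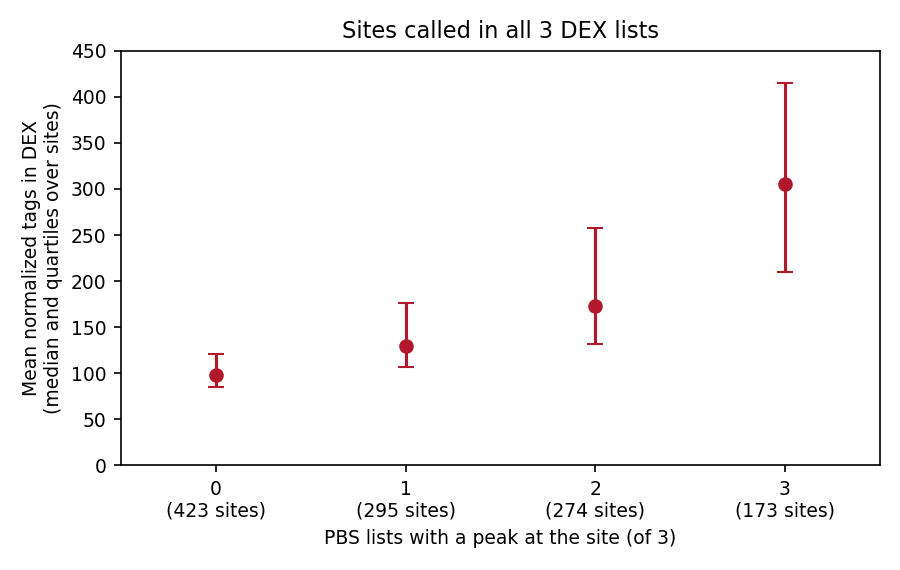
Mean normalized tags in the 3 DEX livers at the 1165 sites called in all 3 DEX lists, by the number of PBS lists that also held a peak there; points are medians over sites and bars run from the lower to the upper quartile. The median goes from 98.1 tags at sites without a PBS peak to 305 at sites called in all 3 PBS lists.

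The 423 sites called in 3 of 3 DEX lists and 0 of 3 PBS lists made up 17.9% of all sites. Fisher's exact test on the detection of a single site cannot go below p = 0.1 (two-sided) with 3 against 3, so no site was called on detection alone. Their number was 654 without PBS replicate 2 and 637 without DEX replicate 2, and 21 sites showed the pattern when each list was shortened to its 230 peaks with the highest findPeaks score. Their mean DEX tag count ran from 67.3 to 367 (median 98.1), and 198 of them held over 100 tags. The highest lay 2761 bp from Agtpbp1, which encodes a carboxypeptidase that trims tubulin (chr13:59446666-59446880), with 406.4, 393.2 and 302.6 tags in the DEX livers. Next came a site in Pag1, the gene of an adaptor that binds the kinase Csk (chr3:9822093-9822312), with 317.3, 353.4 and 241.7 tags, and a site in Cdkal1, a tRNA-modifying enzyme gene linked to insulin secretion (chr13:29576242-29576438), with 292.8, 318.7 and 215.0 tags. At each of the 3 sites every DEX liver was well above the lowest peak of its own list.

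Other sites of this class lay inside genes. In Hsd17b2, whose enzyme inactivates estradiol, the DEX livers held 242.1, 343.0 and 178.9 tags. Lrp6, a Wnt co-receptor gene, held 208.0, 268.5 and 137.0 tags, and Scarb1, the gene of the HDL receptor SR-BI, held 133.7, 285.8 and 178.9 at such a site. Replicate 2 gave the highest DEX value at these genes, as it did at 159 of the 173 sites in all 6 lists. The ubiquitin ligase gene Rnf169 (258.7, 275.4 and 234.1 tags) had the most even values of those named. The remaining ones were in Washc2, Dapk1, Iqch, Nek7 and Nav2, 9262 bp from the potassium channel gene Kcnv2, 4899 bp from Serpina1e and 91806 bp from the transcriptional repressor gene Bcl6, with mean DEX values of 178 to 244. Serpina1e belongs to a cluster of near-identical genes, so its count is uncertain.

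The opposite pattern was rare in the full lists. Sites without a DEX peak numbered 32 with 1 PBS peak, 8 with 2 and 1 with 3. The last count was 2 to 6 without DEX replicate 1 or 3 or any one of the PBS replicates, and 10, beside the 21 sites above, with the lists shortened to 230 peaks. The single one in all 3 PBS lists (0.0422% of all sites) was mitochondrial, 309 bp from CYTB, a subunit gene of respiratory complex III (MT 15495 to 15699), with 2241.6, 1527.6 and 1508.0 tags in the PBS livers but only 6.02-fold over input. A site 332669 bp from Alkbh8 (401.1 and 419.1 tags in PBS replicates 1 and 2) and one 5401 bp from Impact (123.9 and 104.2 in replicates 1 and 3) were also low over input, at 4.40-fold each. Among the sites with 2 PBS peaks, the one 147 bp from Ell2, a transcription elongation factor gene, stood at 127-fold over input, with 99.1 and 33.5 tags in PBS replicates 2 and 3. One in Ctif, a translation factor gene (chr18:75502837-75503059), had 102.5 and 50.2 tags in the same livers. Close beside it, a separate Ctif site (chr18:75503177-75503374) was in all 3 DEX lists and no PBS list, at 130.2, 190.6 and 131.3 tags. The peaks shared no base and so were not merged, and the Ctif locus as a whole was not bound with PBS alone.

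At the 173 sites called in all 6 lists, tags could be compared liver by liver. Sites under the caller's thresholds in any liver did not enter, so the changes below describe only sites that every PBS list held. DEX livers held more tags at 169 of them, with a median log2 change of 1.28 (2.42-fold), and at 82 sites (47.4%) every DEX liver lay above every PBS liver, while at 0 sites every DEX liver lay below. With limma on log2(normalized tags + 1), 27 of 173 sites rose past an adjusted p of 0.05 (15.6%) and 0 fell (0.00%), with 92 and 0 at an unadjusted p under 0.05. limma estimated one spread for all sites, so the standard error was 0.63 at each of them. That spread was pooled over the 173 sites, although the PBS livers differed in the same order at most of them. The limma p-values of this fit thus count sites as separate evidence on spread, with only 3 livers per group, and may be too small. The 27 rises were 3.20- to 6.92-fold, and in 23 of them the groups did not overlap. edgeR's quasi-likelihood test on the tag counts called 0 in either direction (53 and 0 at an unadjusted p under 0.05, lowest adjusted p 0.132). Every library mattered to the limma count: it was 0 without DEX replicate 1, 0 without DEX replicate 2, 1 without DEX replicate 3, 95 of 445 sites without PBS replicate 1, 146 of 174 without PBS replicate 2 and 1 without PBS replicate 3. The median log2 change stayed between 0.96 (without PBS replicate 1) and 1.74 (without PBS replicate 2). Set against single PBS livers, the median DEX site was 4.68-fold above PBS replicate 1, 1.26-fold above PBS replicate 2 and 2.26-fold above PBS replicate 3. Liver by liver, DEX replicate 3 against PBS replicate 2 was the single pair without an excess, at 0.985-fold, with DEX higher at 84 of 173 sites.

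**Figure D3:**
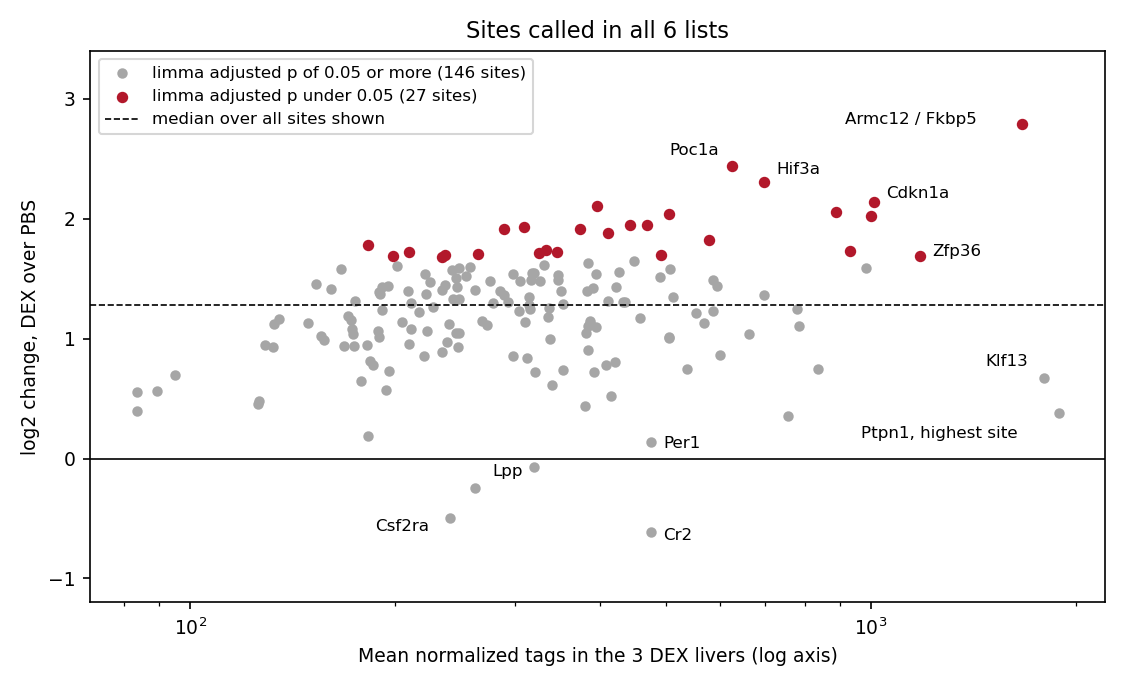
Change in tags (log2, DEX over PBS) against the mean normalized tags of the 3 DEX livers (log axis) for the 173 sites called in all 6 lists; red points passed a limma adjusted p of 0.05, and the dashed line is the median change of 1.28. The 27 red points lie between 182 and 1667 tags, while the sites of Per1 and Lpp lie near 0 and those of Cr2 and Csf2ra lie below it.

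The largest rise was at a site between Fkbp5 and Armc12. It lay 26.8 kb from Fkbp5, whose product FKBP51 is a co-chaperone that lowers the receptor's affinity for hormone, and 17917 bp from Armc12 (chr17:28512805-28513084). It held 1672.0, 1993.9 and 1334.0 tags in the DEX livers, against 65.1, 708.6 and 285.3 in the PBS livers, so that the lowest DEX liver was well above the highest PBS liver. The log2 change was 2.79 ± 0.63 (SE, limma adjusted p = 0.00174), and 1.87 ± 0.52 without PBS replicate 1 (limma adjusted p = 0.00839). Over the 6 fits that each left out 1 library it was 1.87 to 3.58, the highest without PBS replicate 2. The site did not pass without DEX replicate 1 or without DEX replicate 2 (limma adjusted p = 0.105 and 0.318). Both other sites assigned to Armc12 changed less, by 1.25 ± 0.63 and 0.75 ± 0.63, and did not pass (limma adjusted p = 0.0892 and 0.274). Inside Fkbp5 itself, the best site (chr17:28424454-28424665) held 162.6, 265.0 and 158.0 tags with DEX, against 107.0 in PBS replicate 2 and no peak in the other PBS livers.

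Next in size was a site 12351 bp from Poc1a, a gene of a centriole protein (chr9:106266987-106267197). Its DEX livers held 523.5, 880.0 and 472.0 tags, against 52.4, 215.2 and 117.2 in the PBS livers, without overlap (log2 change 2.44 ± 0.63, limma adjusted p = 0.0095). It was 1.91 without PBS replicate 1, which still passed, and up to 2.92 without PBS replicate 2. Hif3a, which encodes a HIF alpha subunit, rose at a site within the gene (chr7:17058230-17058437). The values there were 708.0, 729.3 and 648.9 tags with DEX, against 42.8, 476.5 and 132.7 with PBS, and the DEX livers lay close together above all PBS livers (2.30 ± 0.63, limma adjusted p = 0.015). The Hif3a change was 1.46 without PBS replicate 1 (limma adjusted p = 0.0323) and 3.18 without PBS replicate 2. Cdkn1a, the gene of the cell cycle inhibitor p21, rose at a site within the gene 934 bp from a start (chr17:29094593-29094814), with 1069.8, 994.3 and 963.9 tags in DEX livers, against 61.9, 732.2 and 260.5 in PBS livers. Its log2 change was 2.14 ± 0.63 (limma adjusted p = 0.0287), 2.98 without PBS replicate 2 and, no longer past the test, 1.20 without PBS replicate 1 (limma adjusted p = 0.0747). The Poc1a, Hif3a and Cdkn1a sites all failed to pass when any 1 DEX replicate or PBS replicate 3 was left out (limma adjusted p = 0.0694 to 0.318).

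**Figure D4:**
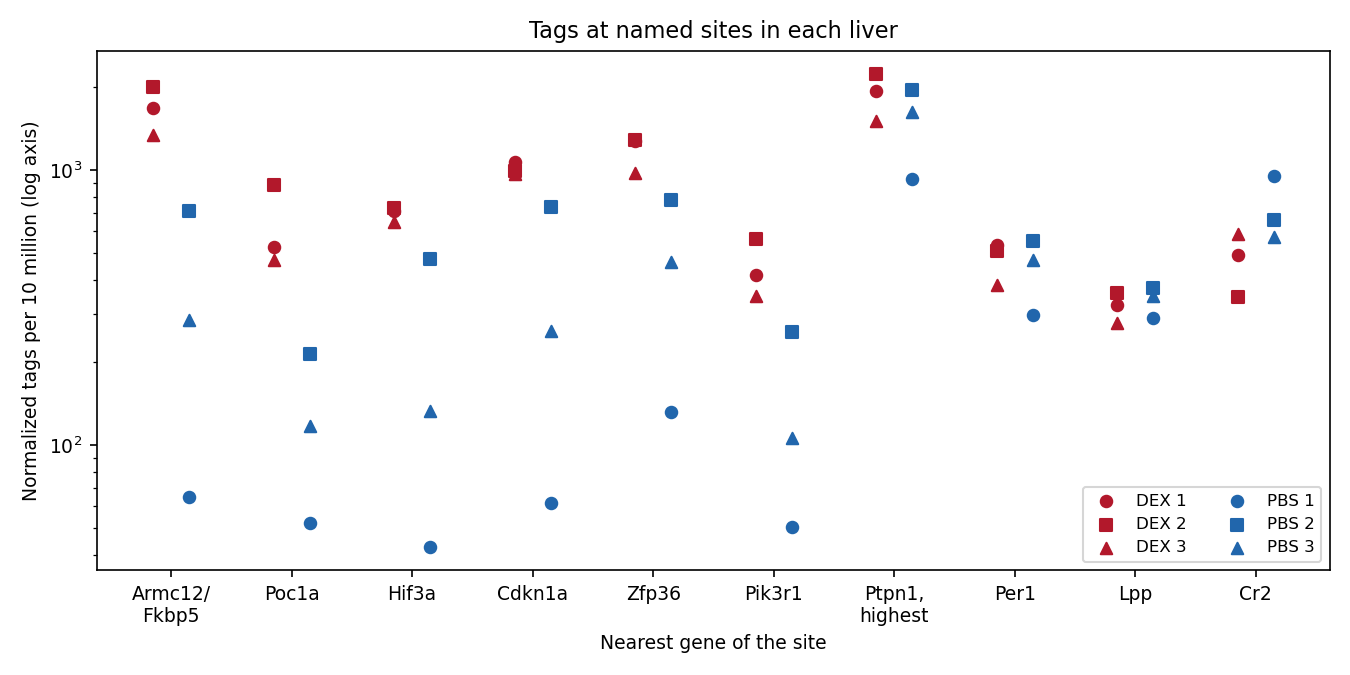
Normalized tags (log axis) at 10 sites in each liver, with DEX livers in red left of PBS livers in blue and one symbol per replicate number; sites carry the name of their nearest gene. At the first 6 sites all DEX livers lie above all PBS livers and PBS 1 is lowest, while at the highest Ptpn1 site and at Per1, Lpp and Cr2 the groups overlap.

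Other rises took in signalling and transcription factor genes. Pik3r1, a regulatory subunit of phosphatidylinositol 3-kinase that acts in insulin signalling, held 416.0, 561.3 and 349.2 tags with DEX, against 50.5, 256.8 and 106.1 with PBS (1.95 ± 0.63, limma adjusted p = 0.0316). Zbtb16, a transcriptional repressor gene, rose at its highest site, with 959.7, 1271.5 and 768.8 tags in DEX livers, against 48.5, 899.0 and 313.9 in PBS livers, and here PBS replicate 2 overlapped the DEX range (2.02 ± 0.63, limma adjusted p = 0.0287). St3gal5, which encodes the enzyme that makes the ganglioside GM3, also overlapped, with 375.0, 568.2 and 242.6 tags with DEX, against 41.5, 368.4 and 40.9 with PBS (2.10 ± 0.63, limma adjusted p = 0.0287). The mRNA-destabilising factor gene Zfp36 rose at a site 265 bp outside its span and 2709 bp from the nearest protein-coding gene start. The site held 1273.4, 1288.8 and 978.2 tags in DEX livers, against 132.2, 780.7 and 463.4 in PBS livers, without overlap (1.69 ± 0.63, limma adjusted p = 0.0493). The other named rises were in Slc12a3, Gm826, Tns1 and Foxp1, 4955 bp from Psmd9, 34010 bp from Gm5148 and at a pair of sites 77072 and 78929 bp from Ptpn1, with log2 changes of 1.82 to 2.06 and no overlap between the groups at any of them. Without PBS replicate 1, 11 of the 27 rises still passed limma, with log2 changes over all 27 of 0.82 to 1.91, and 16 did not. Among those lost were Cdkn1a, Zbtb16 (0.88, limma adjusted p = 0.160), Zfp36 (0.96, limma adjusted p = 0.130), both Ptpn1 sites, Tns1 and Foxp1, while Pik3r1 (1.39) and St3gal5 (1.59) stayed past the test. Without PBS replicate 2 all 27 passed, at 2.09 to 3.58. Without DEX replicate 1 or 2, 0 of the 27 passed, and without DEX replicate 3 or PBS replicate 3 only 1 did, the site near Fkbp5 and Armc12. Of the 27 sites, 13 were within the span of a protein-coding gene and 1 was within 1 kb of a start, against 77 (44.5%) and 9 (5.20%) of all 173 sites.

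At a few sites, some of them strongly bound, the change between DEX and PBS was near 0. With a standard error of 0.63, such values do not show that DEX had no effect there. In Per1, a clock repressor gene and a known glucocorticoid target (chr11:69096973-69097179), the DEX livers held 534.9, 509.3 and 380.6 tags, against 297.6, 549.7 and 472.0 in the PBS livers. PBS replicate 1 lay below the DEX range, replicate 3 within it and replicate 2 above it, and the log2 change was 0.14 ± 0.63 (limma adjusted p = 0.827). The site 66824 bp from Lpp, at the start of A230028O05Rik, changed by -0.07 ± 0.63 (limma adjusted p = 0.907). Near the ubiquitin ligase gene Trim2 (16772 bp away) the DEX livers held 167.8, 232.1 and 146.5 tags, against 127.1, 210.7 and 143.9 with PBS (0.19 ± 0.63). Adk, the adenosine kinase gene, held 761.3, 857.5 and 644.2 tags in DEX livers, against 378.7, 830.3 and 633.9 in PBS livers (0.36 ± 0.63). The DEX and PBS values overlapped at both, with PBS replicate 1 lowest.

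Lower mean values with DEX were found at 4 sites, none past the test. Besides Lpp they were an unplaced scaffold (JH584304.1, -0.24 ± 0.63) and sites 17425 bp from Csf2ra (-0.50 ± 0.63) and 64839 bp from Cr2 (-0.61 ± 0.63). The Cr2 site (chr1:195241619-195241820) held 490.3, 346.5 and 587.1 tags in DEX livers, against 947.7, 656.8 and 572.5 in PBS livers, with one overlap. The Csf2ra and Cr2 sites were added to the named ones after their values were seen. Scaffold, Csf2ra and Cr2 sites stood 4.70- to 6.95-fold over input in DEX livers (medians of 3), while every other site of the 173 was at least 16.5-fold over input.

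Which sites moved more or less than the rest was asked after centring each library on its median over the 173 sites, which took 1.32 off every log2 change. One site lay above the common shift (0.578%), that near Poc1a, by 1.12 ± 0.17 (limma adjusted p = 0.0165), and 0 lay below it (0.00%). At an unadjusted p under 0.05 limma gave 13 above and 31 below, and edgeR called 1 above and 0 below with 25 and 20 unadjusted. The site near Fkbp5 and Armc12 was 1.47 ± 0.33 above the shift and the Per1 and Lpp sites 1.18 ± 0.28 and 1.40 ± 0.35 below it, all with a limma adjusted p of 0.0763.

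Sites of one locus are given side by side for the same livers. Between Cebpb, the gene of a liver transcription factor, and Ptpn1, which encodes a phosphatase that acts on the insulin receptor, 12 sites were found. The highest of all sites in the DEX livers lay there, 85983 bp from Ptpn1 (chr2:167844667-167844867), with 1936.8, 2224.3 and 1500.6 tags, against 924.7, 1959.0 and 1617.7 with PBS. Most PBS values lay within the DEX range, and the log2 change was 0.38 ± 0.63 (limma adjusted p = 0.561). Only 7.05 kb away, a site held 838.2, 1022.1 and 808.8 tags in DEX livers, against 70.9, 553.1 and 240.7 in PBS livers, without overlap (2.06 ± 0.63, limma adjusted p = 0.0287). Another, 8.91 kb away, held 355.7, 457.3 and 307.3 tags with DEX, against 33.8, 250.1 and 106.7 with PBS (1.91 ± 0.63, limma adjusted p = 0.0316). The site 15.97 kb away did not pass, with 607.4, 810.7 and 569.0 tags in DEX livers, against 113.0, 593.7 and 474.5 in PBS livers (1.04 ± 0.63, limma adjusted p = 0.138). In the direction of Cebpb, a site 21.17 kb away held 525.3, 762.2 and 520.5 tags with DEX, against 331.2 and 106.7 in PBS replicates 2 and 3 and no peak in replicate 1. The best of the sites nearest to Cebpb itself (chr2:167777425-167777673) held 208.0, 346.5 and 247.4 tags with DEX, against 215.2 and 117.2 in PBS replicates 2 and 3. After centring, the 4 sites in all 6 lists lay -0.94, 0.73, 0.59 and -0.28 from the common shift, in the order given, and none passed (limma adjusted p = 0.0763, 0.135, 0.160 and 0.500). The difference between neighbours was not tested by itself.

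Genes of known glucocorticoid programmes and of other lists were looked up by nearest gene. The lists were chosen with earlier results of these data known, so their counts are descriptive and no enrichment was tested. Each site was given to the protein-coding gene whose span was nearest, and 890 of 21900 genes (4.06%) had at least 1 site called in all 3 DEX lists. Of 26 classical glucocorticoid-induced genes, 20 had one, with 51 such sites in all. Of their 18 sites in all 6 lists 4 rose in limma (Zfp36, Cdkn1a, Zbtb16 and Pik3r1), against 15.6% of all 173 sites, and 0 fell. Without PBS replicate 1, Pik3r1 was the one of these 4 still past the test. The median log2 change was 1.44, against 1.28 over all 173 sites, and the groups did not overlap at 8 of the 18, against 47.4% of all 173. Nfkbia, an inhibitor of NF-kappaB, narrowly missed the threshold with 478.1, 462.5 and 404.4 tags in DEX livers, against 53.0, 297.4 and 181.1 in PBS livers, without overlap (1.65 ± 0.63, limma adjusted p = 0.0549). Klf9, a hormone-induced transcription factor gene, held 413.4, 433.1 and 295.9 tags with DEX, against 127.7, 277.1 and 169.3 with PBS (1.04 ± 0.63, limma adjusted p = 0.138). The growth factor-binding gene Igfbp1 changed by 1.52 ± 0.63 and Klf15 by 1.61 ± 0.63, neither past the test.

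Classical targets without a peak in PBS replicate 1 could not enter that test. A site 1095 bp from Mt2, the other metallothionein gene (chr8:94171409-94171638), held 451.0, 535.3 and 357.8 tags with DEX, against 369.5 and 60.8 in PBS replicates 2 and 3. Dusp1, a phosphatase gene that restrains MAP kinases, held 193.2, 299.7 and 154.1 tags with DEX, against 95.8 and 52.7 in the same PBS livers. The DEX livers lay above both PBS livers at Dusp1 but not at Mt2. Tsc22d3, the gene of the glucocorticoid-induced leucine zipper GILZ and named here after its values were seen, had a peak in DEX replicate 1 alone, at 57.7 tags, against 42.1, 72.1 and 51.5 in the PBS livers. These values lie near the lowest a list could hold. Lcn2, Gadd45b and Ddit4 had a PBS peak in replicate 2 alone, at 123.9, 67.6 and 58.6 tags, with mean DEX values of 295, 186 and 126.

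Of 20 genes that make glucose or break down amino acids, 9 had a site in all 3 DEX lists, none of them in all 6 lists. Pck1, which encodes the enzyme that commits oxaloacetate to glucose, held 112.7, 155.9 and 110.4 tags with DEX, against 98.0 and 82.5 in PBS replicates 2 and 3 at a site 362 bp away. At G6pc, the gene of the last enzyme of glucose release, the values were 118.9, 168.0 and 81.8 with DEX, against 123.9 and 80.0 in the same PBS livers, with overlap. Tat, a tyrosine-degrading transaminase gene with 5 sites in all 3 DEX lists, held at best 138.1, 287.6 and 105.6 tags with DEX, against 135.2 and 50.2 with PBS. The highest of the list was Sdsl, a serine dehydratase-like gene, with 366.2, 540.5 and 320.7 tags in DEX livers, against 277.1 and 74.4 in PBS replicates 2 and 3. Hpd, Got1, Cps1 and Gpt had mean DEX values of 209.8 to 277 and peaks in the same PBS lists, and Gpt2 was listed with PBS in replicate 2 alone.

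Of 24 genes of fatty acid oxidation and ketogenesis, 6 had such a site. Plin4, a lipid droplet coat gene, held 982.4, 1075.8 and 891.6 tags with DEX, against 74.1, 990.2 and 469.6 with PBS, where PBS replicate 2 reached the DEX range (1.58 ± 0.63, limma adjusted p = 0.0575). Lpin1, whose product acts in fat synthesis and as a co-activator of fat oxidation, changed by 1.35 ± 0.63 and did not pass. Ppara, the gene of the fatty acid-sensing receptor, held 277.9, 346.5 and 241.7 tags with DEX, against 138.6 in PBS replicate 2 and no peak in the other PBS livers. Bdh1, a ketone body enzyme gene, held 382.8, 530.1 and 378.7 tags with DEX, against 224.2 and 44.7 in PBS replicates 2 and 3, without overlap. The others were Cpt1a and Pnpla2.

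HIF target genes with a site in all 3 DEX lists numbered 5 of 26. Hif3a, described above, was their single gene with a site in all 6 lists. Bnip3, a mitophagy gene, held 304.2, 327.4 and 154.1 tags with DEX at a site 9825 bp away, against 107.0 and 42.2 in PBS replicates 2 and 3, without overlap. Pfkfb3, a regulator gene of glycolysis, and Ldha, the lactate dehydrogenase A gene, had mean DEX values of 127 and 103 and 1 PBS peak each, at 86.7 and 49.6 tags. Bhlhe40, also a clock gene, was the weakest, with 66.4, 98.7 and 77.1 tags in DEX livers, against 37.8 in PBS replicate 3.

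Of 19 circadian clock genes, 4 had such a site: Per1, Ciart, Tef and Bhlhe40. Ciart, a repressor of the clock, held 373.2, 395.0 and 273.1 tags with DEX, against 41.5, 278.3 and 140.8 with PBS, with PBS replicate 2 just inside the DEX range (1.53 ± 0.63, limma adjusted p = 0.0588). The clock-controlled activator gene Tef held 220.3, 278.9 and 189.4 tags with DEX, against 135.2 and 41.6 in PBS replicates 2 and 3. Unlike these, the Per1 site had PBS values at the level of the DEX values.

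Acute phase and inflammation genes numbered 9 of 24, led by Zfp36 and Nfkbia. Saa1, Orm2, Lcn2 and Orm1, all genes of secreted acute phase proteins, had mean DEX values of 134.5 to 295 and a peak in 1 or 2 PBS lists, of 49.0 to 123.9 tags. The haptoglobin gene Hp had none, with 118.0, 162.8 and 76.1 tags in the DEX livers. Reads at Saa1, Orm1 and Orm2 could have been split with near-identical copies. Il6ra, the interleukin-6 receptor gene, held 108.4, 223.5 and 65.7 tags with DEX, against 91.2 and 42.8 in PBS replicates 2 and 3, with overlap.

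Among genes of bile acid, cholesterol and xenobiotic metabolism 6 of 18 had such a site, and among liver transcription factors 5 of 16. Nr1i2, the gene of the xenobiotic receptor PXR, belongs to both lists and held 308.5, 398.4 and 244.5 tags with DEX, against 40.9, 229.8 and 140.2 with PBS, without overlap (1.49 ± 0.63, limma adjusted p = 0.0617). Rxra, the partner of many nuclear receptors, changed by 1.56 ± 0.63 at a site 51256 bp away (limma adjusted p = 0.0588). Abcc2, a bile canalicular transporter gene, Srebf2, the regulator of cholesterol synthesis, and Hnf4a had sites without a PBS peak, with mean DEX values of 152, 125 and 76.9. Insig2, which restrains cholesterol synthesis, held 129.4, 195.7 and 110.4 tags with DEX, against 67.6 in PBS replicate 2.

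Binding near a gene does not measure its expression, so the marker lists describe where the receptor sat and do not check the tissue. Of 15 hepatocyte markers 4 had a site in all 3 DEX lists (Cps1, Hamp, Alb and Glul). Endothelial markers numbered 3 of 14, with 114.5, 140.3 and 121.8 tags in DEX livers near Flt1, against 67.6 in PBS replicate 2, and with Vwf and Gpihbp1 at mean DEX values of 114 and 109. No marker of Kupffer cells and leukocytes (0 of 15) or of stellate cells and cholangiocytes (0 of 16) had one. Of all protein-coding genes 4.06% had one, and lists this short cannot tell 0 from that share.

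Most sites lay away from gene starts in both groups. Peaks within 1 kb of either end of a protein-coding gene made up 11.5%, 8.96% and 10.9% of the DEX lists, against 9.13%, 11.1% and 11.7% of the PBS lists, with a mean difference (DEX minus PBS) of -0.18 points (two-sided exact permutation p = 0.7). Of the 1165 sites in all 3 DEX lists, 52.3% lay inside a gene span and 6.70% within 1 kb of a start. The share inside a gene was 56.0% of the 423 sites without a PBS peak and 44.5% of the 173 sites in all 6 lists. Genes often had one such site: 712 of the 890 genes had 1, 124 had 2 and 54 had 3 or more, with 8 around Zbtb16 and 7 each around Errfi1, Nedd4l and Ptpn1. Whether a site was exonic or intronic was not determined here.

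At gene starts, 57 of the 1165 sites overlapped the window from 250 bases before to 50 after a start, in 61 windows of 58 genes. The core ACANNNTGT was found in 15 of the 61 windows (24.6%), against 6.85% of all 32817 windows of the same length. The core preceded by GN and followed by NC, which also reads the same on both strands, was found in 10 (16.4%), against 0.475% of all windows. The half-site AGAACA, on either strand and in some cases overlapping the core, was found in 21 (34.4%), against 19.0%. A match describes letters in the window and not a site the receptor was shown to use.

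The sites called in all 3 DEX lists after 6 h were looked up in the lists of the other oxygen conditions. Of the 423 sites without a PBS peak after 6 h, 252 (59.6%) were in all 3 lists of 24h hypoxia DEX and 382 (90.3%) in all 3 lists of normoxia DEX, whose lists differ in length. With PBS, 421 of them were in no 24h hypoxia PBS list and 366 in no normoxia PBS list. Of the 173 sites in all 6 lists, 170 were in all 3 lists of 24h hypoxia DEX and 170 in all 3 of normoxia DEX, and 66 and 113 in all 3 PBS lists of these conditions.

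Whether the DEX effect after 6 h differed from that in the other conditions was tested at sites called in all 12 lists of a pair of conditions. At 64 sites the median log2 change was 1.16 after 6 h, against 1.55 after 24 h of hypoxia, and the 6 h change was the smaller one at 58. With each library centred on its median, the 6 h change was larger at 39 sites and smaller at 25. limma's interaction contrast called 0 sites larger and 0 smaller at 6 h (0.00% each; 0 and 1 at an unadjusted p under 0.05, lowest adjusted p 0.982), and edgeR called 0 and 0 (0 and 1 unadjusted). The site with the lowest p lay 6100 bp from Ttpal, a gene of a lipid-binding protein. There the change was 1.25 after 6 h (778 ± 227 tags with DEX, 403 ± 344 with PBS, SD, n = 3 each), against 2.87 after 24 h (808 ± 181 with DEX, 119 ± 66.0 with PBS), a difference of -1.62 ± 0.77 (limma adjusted p = 0.982). Next came AA986860 and Slc45a1 on that side, and Nr1i2, Per1 and Dnaja3 on the other, with differences of -0.96 to 0.24. Without 6 h PBS replicate 1, the median difference was -0.85 in place of -0.41 and limma called 3 of 66 sites smaller at 6 h. Without 6 h PBS replicate 2 it was 0.03, with 0 called. After centring limma called 0, with 4 larger and 1 smaller at an unadjusted p under 0.05.

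Against normoxia, the median change at 113 sites was 1.22 after 6 h, against 1.99 in normoxia, and the 6 h change was the smaller one at all 113. With each library centred on its median, it was larger at 56 sites and smaller at 57, with 0 called by limma (2 and 8 at an unadjusted p under 0.05). limma called 0 sites larger and 0 smaller (0.00% each; 0 and 5 at an unadjusted p under 0.05, lowest adjusted p 0.595), and edgeR called 0 and 0 (0 and 4 unadjusted). The lowest p was at a site 19724 bp from AA986860, with a change of 0.81 after 6 h, against 2.91 in normoxia (difference -2.10 ± 0.83, limma adjusted p = 0.595). The highest Zbtb16 site differed by -1.89 ± 0.83 and the site near Fkbp5 and Armc12 by -1.80 ± 0.83, with a change at that site of 2.79 after 6 h, against 4.59 in normoxia. Mean tags at the Fkbp5 and Armc12 site were 1667 with DEX and 353 with PBS after 6 h, against 1579 and 73.4 in normoxia. At Zbtb16 they were 1000 and 420, against 950 and 89.0, and at AA986860 421 and 268, against 383 and 69.5. The DEX means were thus closer between conditions than the PBS means at these sites. Normoxia PBS replicate 1 stood apart, with 43645787 tags and a peak size of 280 bp, against 178 to 196 bp in the other libraries. Without it the median difference was -0.32 in place of -0.81, with 0 sites called. Without 6 h PBS replicate 1 it was -1.31 and 4 of 129 sites were called smaller at 6 h, and without 6 h PBS replicate 2 it was -0.39 with 0 called.

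**Figure D5:**
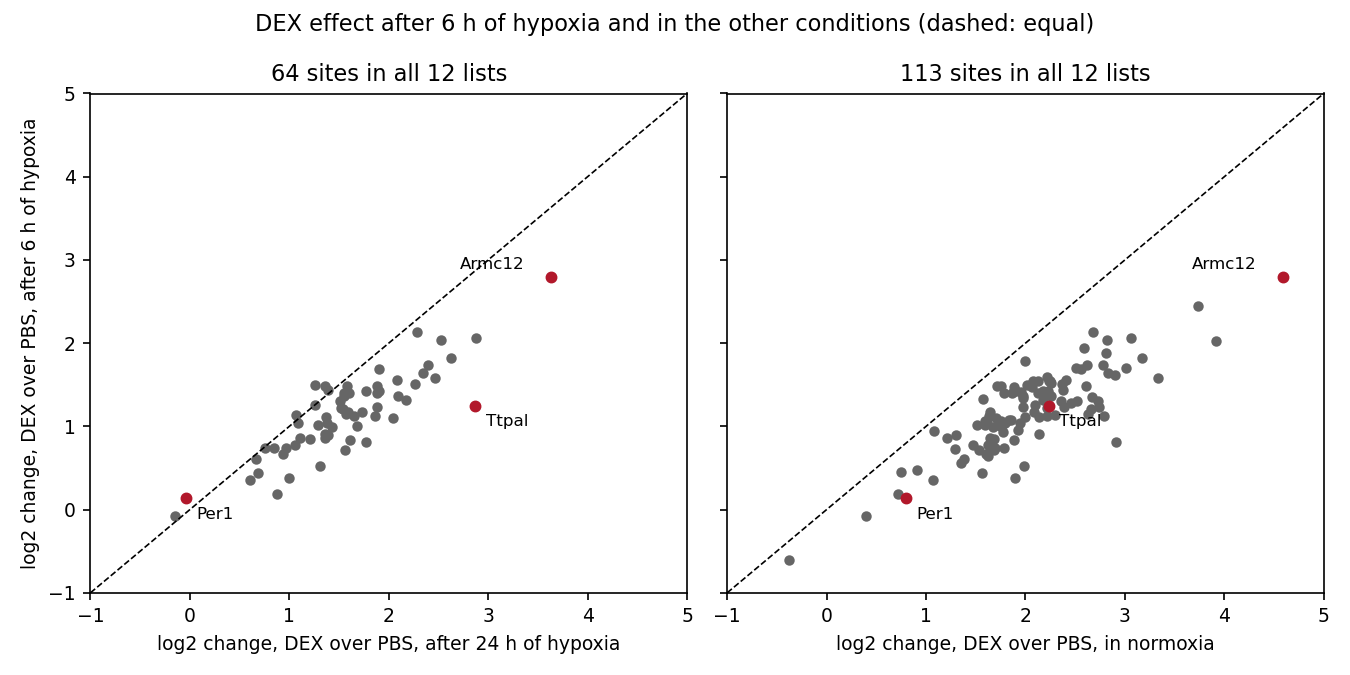
log2 change with DEX after 6 h of hypoxia (vertical axis) against that after 24 h of hypoxia (left) and in normoxia (right), one point per site called in all 12 lists of each pair; the dashed line marks equal changes. Most points lie below the line, 58 of 64 on the left and 113 of 113 on the right; after centring each library these counts were 25 and 57, and none passed the test of the difference.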

How the data were processed

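The deposited files are HOMER findPeaks lists, 1 per receptor library. Per the submitters' processing notes, reads were handled with Trimmomatic, BWA 0.7.17, SAMtools 1.10 and HOMER on mm10 (HOMER version unstated). A peak needed, per the file headers, 50 tags, 4-fold enrichment and a Poisson p of 1e-04 over the input of its oxygen condition and over the 10000 bp around it, with 1 tag kept per position. The normalized tag count, a coverage signal, was deposited per 10000000 tags. The deposited tag counts, findPeaks scores and fold ratios over input were used for edgeR, for an alternative value and as a filter.

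Sites were merged at 1 bp overlap, and the mean log2(normalized tags + 1) of 3 DEX and 3 PBS livers was compared with limma 3.58.1, with Benjamini-Hochberg adjustment at 0.05 over all sites in every list. edgeR 4.0.16 (R 4.3.3) and exact permutation tests (scipy 1.17.1, Python 3.11.15) were the others. limma and edgeR, but not the permutation tests, were checked on simulated tags. These had equal numbers of rises and falls, one spread for all libraries and no common shift. The check therefore does not cover the shift and the uneven PBS livers seen here. Total tags of 5772670 to 16121184 limit low peaks. Values after ± are limma standard errors, or SDs over 3 livers where marked, and both reflect differences between livers. Nearest genes are 21900 protein-coding RefSeq spans of GRCm38.p6, 0 bp meaning inside.

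Members, gene lists and tests were chosen with earlier results of these data known. Named were the 15 largest rises, all falls up to 6 and the 5 changes nearest 0; the 15 highest sites without a PBS peak and 6 highest without a DEX peak; list genes at their best site; the 3 smallest interaction p-values each way; and bound gene starts. No pair of lists was identical (0). Input libraries were used only as the authors' controls. Normoxia PBS replicates 1 and 3 list tags scaled to the control, so for edgeR whole tags were computed from their normalized values and depth.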

Additional observations from a re-analysis of the deposited data

How the results depend on the processing

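The 27 rises depended on the setting. The count was 105 of 173 with a replicate block, which contained all 27, 0 with edgeR, 148 of 484 sites called in at least 2 of 3 lists of each group, 0 of 39 with the common minimum of 83.2 tags applied to every list, 15 of 170 with 8-fold over input required, 1 after centring and 0 on the findPeaks score, an alternative chosen after seeing the data (88 at an unadjusted p under 0.05). Leaving out a library gave 0 to 146. Same-numbered livers correlated at -0.02, 0.20 and 0.31. The best partner was the same-numbered liver for replicates 2 and 3, but replicate 3 for replicate 1. The sample labels state no pairing and these values cannot settle it, so the block is given only here. The number of sites above the common shift was 2 with the replicate block, 0 in at least 2 of 3 lists, 0 with the common minimum, 2 at 8-fold and 0 to 10 without a library. The number below it was 10 with the replicate block, 6 at 8-fold and 0 to 22 without a library.

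The median change at sites in all 6 lists was -0.046 after centring, by construction, and 0.96 to 1.74 without a library. With every list shortened to its 230 top-scoring peaks, 21 sites were in all DEX and no PBS lists and 10 the other way. Without a library these counts were 423 to 654 and 1 to 6, and at 8-fold the second was 0. The difference in the share near a gene end was 1.84 points with the common minimum, 1.38 points within 5 kb, and -0.931 to 0.577 without a library. Against 24 h, 0 to 3 interactions were smaller without a library, and against normoxia 0 to 4. Named changes that turned sign were Lpp (0.19 on the score; -0.18 to 0.024 without a library), Per1 (-0.12 to 0.33 without a library, the lowest without PBS replicate 1) and Trim2 (-0.00010 to 0.40 without a library, the lowest without DEX replicate 2). The cause of these differences was not tested. Low depth limits weak sites most in DEX replicate 2, where 50 tags equal 86.6 normalized tags.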
